A study of Equus caballus with 45 samples.

Results

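The comparison described here sets equine macrophages given conditioned medium (CM) of STING-activated mesenchymal stromal cells (STING-MSC-CM) against the same macrophages given CM of TLR3-activated MSC (TLR-MSC-CM), across all genes. Its members were the 6 macrophage libraries that the sample labels assign to these media, of 45 libraries in the series. There were 3 libraries with each medium, 1 for each of the lines that the labels name AG1, ORC and PC, and the libraries were paired by line.

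MSC from bone marrow were exposed for 2 h to the STING agonist 2′3′-cGAMP or the TLR3 agonist poly I:C, washed, and cultured for 24 h to yield the CM. The study's design text gives both agonists at 10 µg/mL, while the sample labels give 10 ng/mL. The macrophages were derived with M-CSF from blood monocytes of 1 horse, while the study's MSC came from 3 horses. The labels do not say what the line stands for. It can be read as the horse whose MSC made the medium, but the MSC libraries of the series carry the lines 92, 99 and PC, and the macrophage libraries without any MSC medium also carry ORC. All 6 cultures also carried an inflammatory stimulus of IL-1β plus TNF-α, at 10 ng/mL each by the labels and 20 ng/mL by the study's methods, and received 1 part CM to 3 parts macrophage medium. After 24 h they were washed and cultured for another 24 h before RNA was taken. A further 3 libraries with CM of resting MSC (resting MSC-CM) entered the same fit, and 1 library with the cytokines only and 1 with no addition served as unreplicated reference values. Every test in macrophages below therefore rests on 3 libraries per medium on cells of 1 horse. In the main fit, with the line as a block, the error is the spread left after line and medium are fitted, resting libraries included.

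Macrophages take up and digest particles, lipoproteins and dying cells through scavenger receptors, clathrin and the lysosome, and sense microbes through Toll-like and NOD-like receptors. MSC act on them largely through secreted factors, and both agonists used here are known to switch on type I interferon programmes in the cells that receive them. The question was whether the route of MSC activation changed what the MSC medium did to inflamed macrophages.

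Total counts were 26535024 to 29746987 per library with STING-MSC-CM and 30621778 to 39514591 with TLR-MSC-CM, so that the TLR-MSC-CM libraries were the deeper ones. A floor of 3 counts corresponded to 0.0759 to 0.113 counts per 1000000 (CPM), and floors cover counting error only. The first principal component of the 9 libraries held 45.0% of the variance, and 77.6% of its sum of squares lay between lines. It set line AG1 apart from ORC and PC, which intermixed, with the TLR-MSC-CM library of AG1 at its far end. On this component STING-MSC-CM also lay below TLR-MSC-CM in each line (7.52 against 29.6 in AG1, −20.5 against 0.986 in ORC, −13.9 against −8.59 in PC). The third component, with 10.8% of the variance, separated the media (67.6% between media). Macrophage markers were abundant in all 6 libraries, with a summed level of 13060 to 20352 CPM over 23 markers, whereas chondrocyte markers summed to 0.453 to 1.02 CPM and erythroid markers to 0.793 to 1.57 CPM. T cell markers summed to 555 to 827 CPM and NK cell markers to 258 to 463 CPM, so the cultures also held transcripts of lymphocytes.

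Of 15052 genes tested, 336 (2.23%) differed between the media with an adjusted p under 0.05, by edgeR's quasi-likelihood test with the line as a block and Benjamini-Hochberg adjustment over all genes. With STING-MSC-CM, 213 genes (1.42%) were higher and 123 (0.817%) were lower. The differences were small. Their median size was 0.56 on the log2 scale, 125 genes differed by 1.5- to 2-fold and 22 by more than 2-fold, and the range ran from −1.75 for PLAT to 1.20 for HS3ST3A1. All 336 genes went the same way in the 3 lines, which was likely from the start for genes chosen by a test with the line as a block. In 177 of them the libraries of the media did not overlap, beside 12.9% of all genes tested. At an unadjusted p under 0.05, 1331 genes (8.84%) were higher and 1130 (7.51%) lower.

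The calls rested on the pairing by line and on single libraries. Without the block, edgeR called 0 genes (419 higher and 575 lower at an unadjusted p under 0.05), and DESeq2 called 33 without and 761 with the block. All 336 genes kept their direction in both, which was likely from the start for genes that went the same way in every line. Leaving out 1 library gave 0 calls without STING-MSC-CM ORC (947 higher and 785 lower unadjusted), 21 without TLR-MSC-CM ORC, 37 without STING-MSC-CM AG1, 45 without resting PC, 110 without resting AG1 and 166 without TLR-MSC-CM AG1, and no direction changed.

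**Figure D1:**
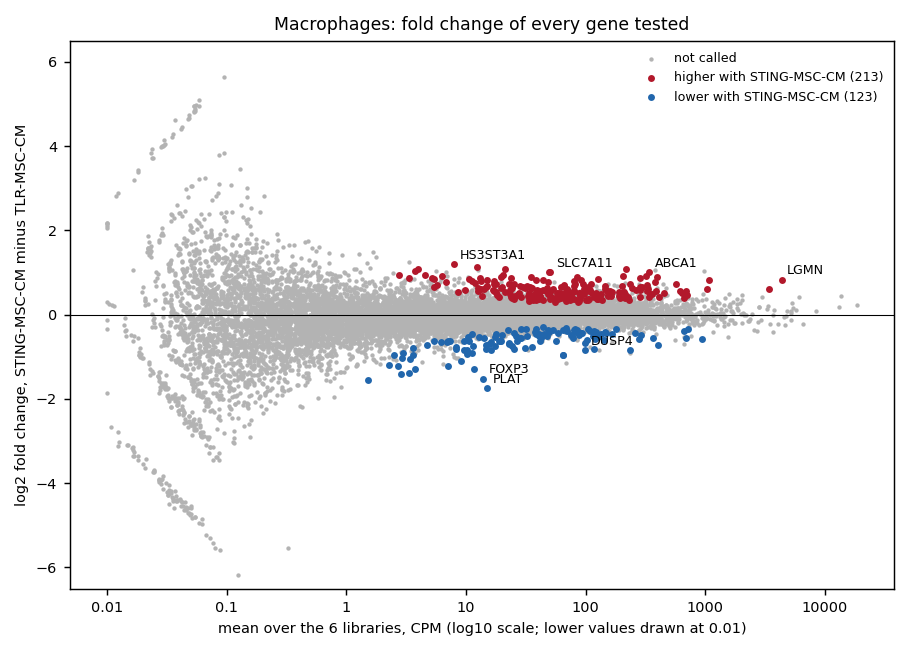
Log2 fold change (STING-MSC-CM minus TLR-MSC-CM) of each of the 15052 genes tested in macrophages against its mean level in the 6 libraries (CPM, log10 scale). Red and blue points are the 213 higher and 123 lower genes with an adjusted p under 0.05; they sit close to zero beside the wide scatter of genes under 1 CPM, none of which was called.

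The genes with the smallest p on the higher side included PDCD1LG2, C1S, NLRP12 and NPL. Values of 3 libraries are given in the order AG1, ORC, PC. PDCD1LG2, which encodes PD-L2, a ligand of the inhibitory receptor PD-1, stood at 67.6, 79.8 and 80.6 CPM with STING-MSC-CM and at 39.0, 52.4 and 53.6 CPM with TLR-MSC-CM. Every STING-MSC-CM library was above every TLR-MSC-CM library, and the log2 fold change was 0.65 ± 0.07 (SE, n = 3 against 3, edgeR adjusted p = 0.00539). NLRP12, a NOD-like receptor known to restrain NF-κB signalling, was at 21.4, 32.6 and 31.3 CPM against 9.39, 16.1 and 15 CPM. Again the groups did not overlap, with a log2 fold change of 1.08 ± 0.12 (edgeR adjusted p = 0.00585). NLRC4, the inflammasome protein that responds to bacterial flagellin, was at 30.2, 57.5 and 50.3 CPM against 17.6, 26.3 and 28.8 CPM. Its lowest STING-MSC-CM value lay only just above the highest TLR-MSC-CM value, and its log2 fold change was 0.89 ± 0.11 (edgeR adjusted p = 0.0063).

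The complement protease C1S was at 35.1, 58.6 and 53.3 CPM with STING-MSC-CM and 21.4, 28.3 and 31.7 CPM with TLR-MSC-CM. The groups were apart, and the log2 fold change was 0.82 ± 0.09 (edgeR adjusted p = 0.00539). Its partner in the C1 complex, C1R, rose by 0.73 ± 0.14 (edgeR adjusted p = 0.0275), without overlap.

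Several of the leading genes encode metabolic enzymes and transporters. SLC7A11, the cystine importer that feeds glutathione synthesis, was at 75.3, 73.3 and 54 CPM against 27, 42.2 and 32.4 CPM. All 3 STING-MSC-CM libraries were higher than any TLR-MSC-CM library, with a log2 fold change of 1.00 ± 0.14 (edgeR adjusted p = 0.0136). DPYD, the enzyme that begins pyrimidine breakdown, was at 46.0, 78.6 and 70.5 CPM against 18.9, 33.2 and 47.1 CPM. Here STING-MSC-CM AG1 fell just below TLR-MSC-CM PC, so the groups overlapped, while within each line STING-MSC-CM was higher (1.02 ± 0.12, edgeR adjusted p = 0.00603). HS3ST3A1, a heparan sulfate 3-O-sulfotransferase, had the largest rise of all called genes, from 2.81, 4.96 and 7.03 CPM to 8.49, 11.6 and 13 CPM. The log2 fold change was 1.20 ± 0.15 (edgeR adjusted p = 0.00818), without overlap of the groups.

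A further 7 of the 15 genes with the smallest p in this direction had log2 fold changes between 0.62 and 0.92. They were NPL (sialic acid breakdown, 0.62), MBOAT1 (phospholipid remodelling, 0.69), LIPG (endothelial lipase, 0.72), AHRR (repressor of the aryl hydrocarbon receptor, 0.82), DMXL2 (a regulator of the vacuolar proton pump, 0.85), GSAP (a γ-secretase regulator, 0.90) and ABCA9 (an ABC transporter, 0.92). SDAD1, annotated as a ribosome biogenesis factor, completes the 15 at 0.82 ± 0.11 (edgeR adjusted p = 0.00876). It stood at 642 to 1800 CPM in these libraries, while in the joint fit of 3 cell types described below it was at 12.6 to 15.4 CPM in synoviocytes and 10.6 to 14.9 CPM in chondrocytes. In the RefSeq table of the TB-T2T assembly its neighbours are the interferon-induced chemokine gene CXCL9 and NAAA. Whether reads of a neighbour were counted with it was not tested.

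**Figure D2:**
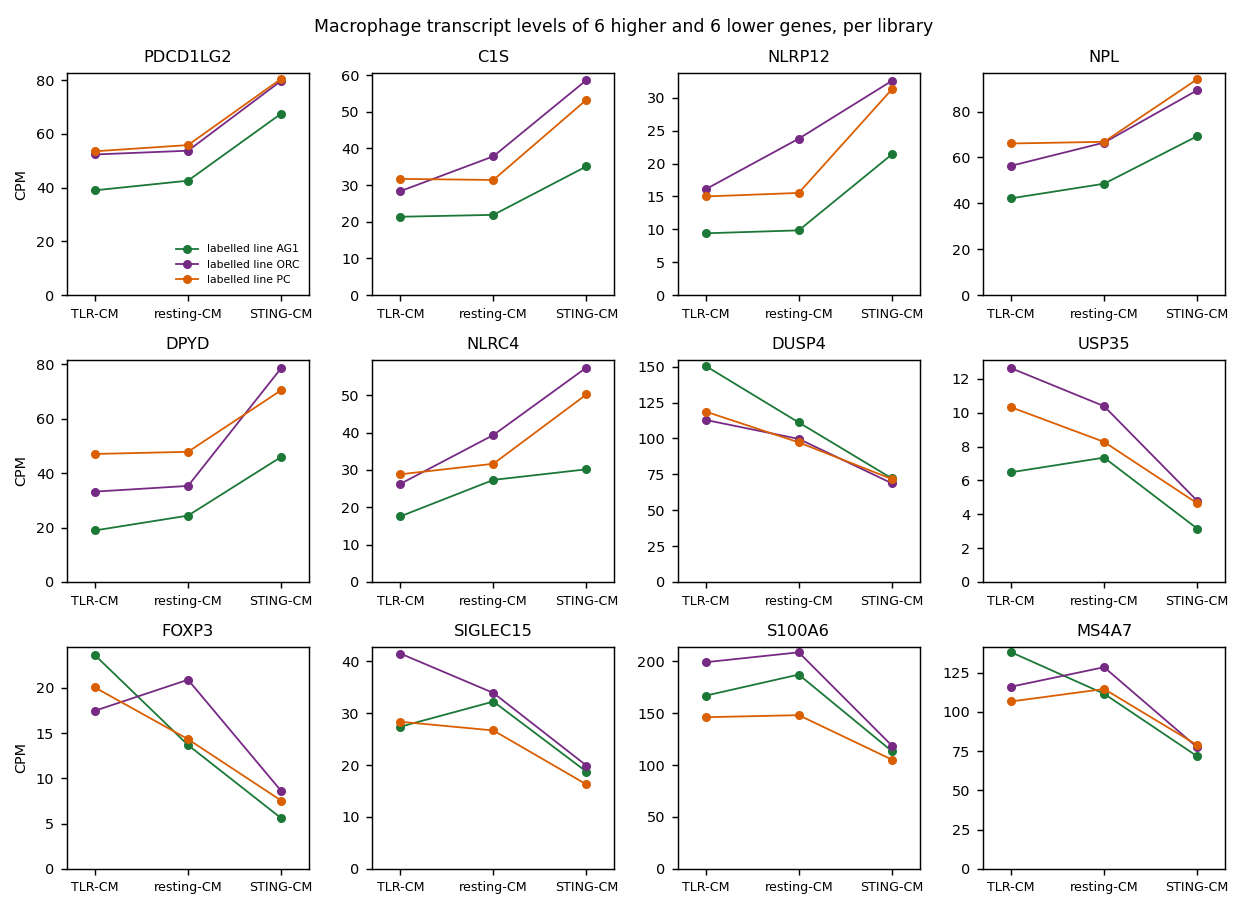
CPM per library of the 6 higher and 6 lower genes with the smallest p, with lines joining the TLR-MSC-CM, resting MSC-CM and STING-MSC-CM libraries of each labelled line. In each panel the STING-MSC-CM point of a line is its highest (PDCD1LG2, C1S, NLRP12, NPL, DPYD, NLRC4) or lowest (DUSP4, USP35, FOXP3, SIGLEC15, S100A6, MS4A7), and the TLR-MSC-CM point lies below the resting one for the higher genes in every line except PC for C1S, while for the lower genes their order varies.

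On the lower side the smallest p of all genes belonged to DUSP4, a phosphatase that switches off MAP kinases. It was at 72.1, 68.7 and 71.7 CPM with STING-MSC-CM and 151, 113 and 119 CPM with TLR-MSC-CM. The STING-MSC-CM libraries lay close together and far below the others, with a log2 fold change of −0.85 ± 0.08 (edgeR adjusted p = 0.00422). FOXP3, the transcription factor that defines regulatory T cells, was at 5.60, 8.61 and 7.54 CPM against 23.6, 17.5 and 20.0 CPM. Every TLR-MSC-CM library held more than the highest STING-MSC-CM library, and the log2 fold change was −1.52 ± 0.18 (edgeR adjusted p = 0.006). PLAT, tissue plasminogen activator, had the largest fall of the called genes, at 10.3, 2.20 and 6.84 CPM against 50.9, 6.82 and 13.5 CPM. The groups overlapped, since TLR-MSC-CM ORC lay below STING-MSC-CM AG1 and beside STING-MSC-CM PC, and the log2 fold change was −1.75 ± 0.28 (edgeR adjusted p = 0.0179).

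SIGLEC15, a sialic acid-binding receptor of the osteoclast lineage, fell by 0.82 on the log2 scale, from 27.4, 41.5 and 28.4 CPM to 18.7, 19.9 and 16.3 CPM, with no overlap. The calcium-binding protein gene S100A6 fell by 0.60 and MS4A7, a membrane protein gene of the monocyte lineage, by 0.67, both also without overlap. Of the other lower genes with the smallest p, USP35 (a deubiquitinase) fell by 1.22, CACNA1G (a T-type calcium channel) by 1.30, VGLL2 (a TEAD cofactor) by 0.97, HSF4 (a heat shock factor) by 0.91, RGS1 (a regulator of G protein signalling in leukocytes) by 0.85, SCML4 (a Polycomb-type protein) by 0.84, TOX2 (an HMG-box factor) by 0.64, NECTIN2 (an adhesion molecule that binds TIGIT) by 0.58 and IGF2BP2 (an mRNA-binding protein) by 0.52. In the RefSeq table PLAT overlaps AP3M2, USP35 overlaps KCTD21 and HSF4 overlaps NOL3, and use of strand in the counting is not given in the sources used here. AP3M2 (1.23 to 2.69 CPM) and KCTD21 (1.76 to 3.10 CPM) were themselves not called. Whether reads of an overlapping gene entered the values of PLAT, USP35 or HSF4 was not tested.

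Set against resting MSC-CM, most of the differences in the called genes lay on the STING side. Of the 213 higher genes, 188 were fitted above resting for the STING medium and below it for the TLR medium, and 25 were above resting with both. Of the 123 lower genes, 104 were below resting for the STING medium and above it for the TLR medium, and 19 were below with both. The median log2 difference from resting of the higher genes was 0.40 for the STING medium but −0.15 for the TLR medium, and that of the lower genes −0.44 and 0.16. STING-MSC-CM against resting called 80 genes (0.531% of those tested), of which 36 were among the higher and 28 among the lower genes, and TLR-MSC-CM against resting called 0 (0%, with 459 higher and 484 lower at an unadjusted p under 0.05 in edgeR). Both share their libraries with the main comparison, so these values stand beside it and add no separate support.

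The single libraries without MSC medium were nearer to STING-MSC-CM. On the log2(CPM + 0.1) scale, the library with cytokines only was closer to the STING-MSC-CM mean than to the TLR-MSC-CM mean for 250 of the 336 genes (74.4%, against 52.7% of the 11554 genes with a mean of at least 1 CPM), and the library with no addition for 246 (73.2%, against 51.7%). PDCD1LG2 was at 74.6 CPM with cytokines only, FOXP3 at 8.30 CPM and DUSP4 at 77.9 CPM, all near their STING-MSC-CM levels. S100A6 departed from this, with 179 CPM with cytokines only. These control values have no replicates and no test.

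Of the lysosomal and clathrin genes, 3 of 55 and 2 of 24 passed the test, and these 5 rose. Counts below are of members with an adjusted p under 0.05 over all genes tested, and medians stand beside a median of −0.01 over all 15052 genes, of which 47.3% were above zero. The counts stand beside 2.23% of all genes tested that passed by adjusted p. At an unadjusted p under 0.05, 8.84% of all genes were higher and 7.51% lower. Of 55 lysosomal hydrolases and membrane proteins, 3 rose and 0 fell (24 and 1 at an unadjusted p under 0.05), with a median of 0.17 and 47 members above zero. LGMN, the lysosomal protease legumain, was at 5257, 5896 and 5325 CPM against 2069, 3599 and 4007 CPM. Its groups did not overlap, with STING-MSC-CM nearly level across lines and TLR-MSC-CM AG1 lowest (0.83 ± 0.16, edgeR adjusted p = 0.0323). FUCA1 (α-fucosidase) rose by 0.43, while cathepsin B (CTSB, 0.44 ± 0.14, edgeR adjusted p = 0.14) and prosaposin (PSAP, 0.19 ± 0.10, 0.382) did not pass.

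Clathrin endocytosis genes (24 tested) had 2 that rose, the adaptor subunit AP2A2 (0.36) and the assembly protein PICALM (0.39), with a median of 0.19 and 12 and 0 past an unadjusted p of 0.05. Of the 16 vacuolar proton pump subunits, 0 rose or fell (3 and 0 unadjusted), and their median of 0.02 changed sign under library-size scaling (−0.02). Iron genes (23 tested) had a median of 0.19 and 3 that rose, namely ACO1 (cytosolic aconitase and iron sensor, 0.53), STEAP3 (a ferrireductase of endosomes, 0.62) and the haemoglobin scavenger receptor CD163 (0.87).

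Scavenger receptor and alternative activation genes gave 5 of 27 that rose and 0 that fell (18.5%, beside 2.23% of all genes). At an unadjusted p under 0.05, 10 were higher and 3 lower. MERTK, the receptor for engulfment of dying cells, was at 57.9, 123 and 109 CPM against 30.6, 66.1 and 88.6 CPM. The groups overlapped across lines, while each line was higher with STING-MSC-CM (0.68 ± 0.12, edgeR adjusted p = 0.0242). The lipid scavenger CD36 rose by 0.92 ± 0.16 and the mannose receptor MRC1 by 0.61 ± 0.14. CD163 was at 169, 623 and 288 CPM against 60.5, 283 and 282 CPM, so that line PC hardly differed (0.87 ± 0.20, edgeR adjusted p = 0.049). The list's median was 0.16, and its mean change was 0.48 in AG1, 0.21 in ORC and −0.04 in PC. Against resting, the list's median was −0.25 for the TLR medium and only 0.05 for the STING medium. By adjusted p in edgeR, 0 members were higher and 2 lower for the STING medium against resting, and 0 passed for the TLR medium.

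Lipid genes had 8%, 6.67% and 14.3% of members called in 3 lists, beside 2.23% of all genes, from 2, 1 and 2 calls. Of 25 cholesterol synthesis and uptake genes 2 rose and 0 fell (9 and 1 unadjusted), with a median of 0.13. Among them, lanosterol synthase LSS was at 25.7, 31.9 and 40.2 CPM against 20.7, 20.7 and 25.7 CPM (0.52 ± 0.09, edgeR adjusted p = 0.0246). The groups of LSS overlapped by a hair, with STING-MSC-CM AG1 level with TLR-MSC-CM PC. SREBF2, the factor that drives this pathway, had a log2 fold change of 0.06 ± 0.08 (edgeR adjusted p = 0.777). Of 15 fatty acid synthesis genes only malic enzyme ME1 passed (0.35), which overlaps PRSS35 in the RefSeq table, and of 14 efflux and LXR target genes CD36 and ABCA1 passed. ABCA1, the exporter of cholesterol to lipoproteins, was at 383, 527 and 405 CPM against 112, 256 and 353 CPM. The gap was widest in AG1 and small in PC, and the groups did not overlap (1.00 ± 0.21, edgeR adjusted p = 0.0376). The medians of those lists, 0.05 and 0.02, were near that of all genes, and the second turned to −0.02 under library-size scaling.

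**Figure D3:**
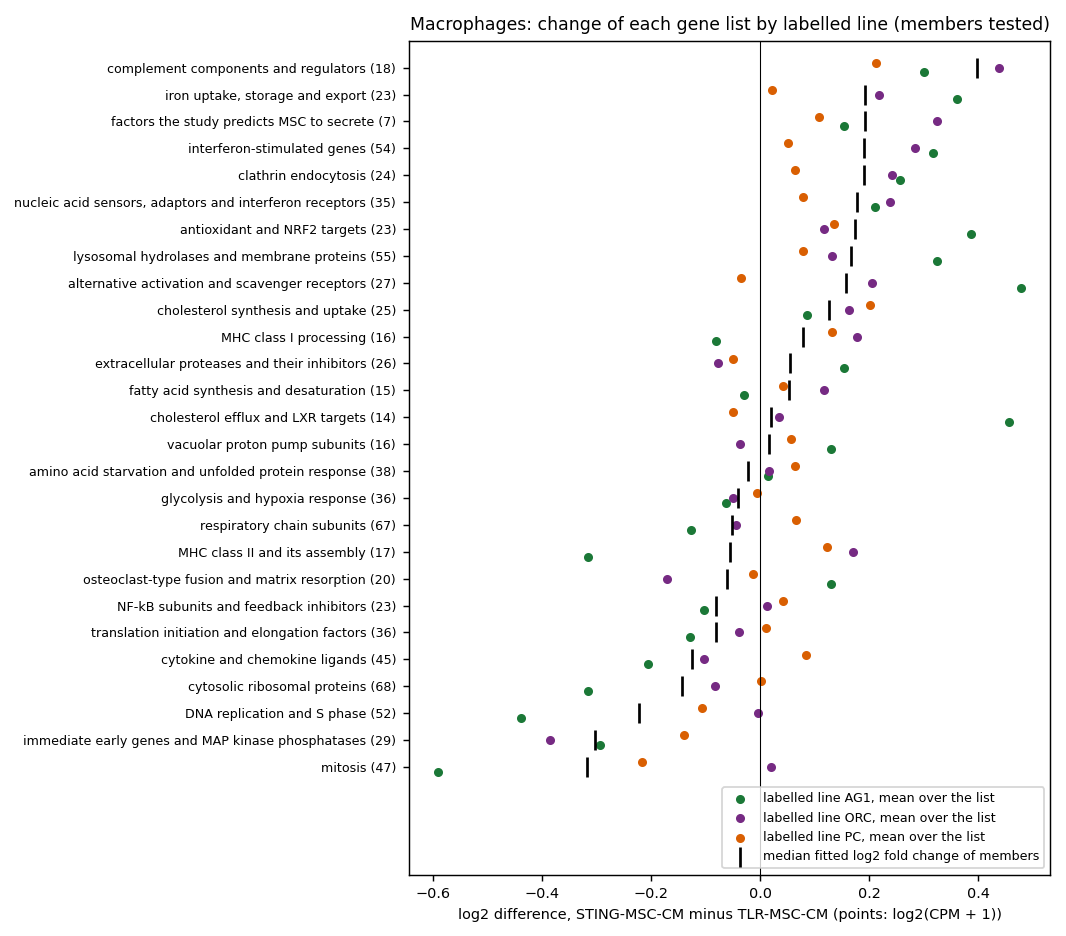
Change of each of the 27 gene lists, STING-MSC-CM minus TLR-MSC-CM, as the mean over its members of log2(CPM + 1) in each labelled line (coloured points) and as the median fitted log2 fold change of its tested members (black bars; number tested in brackets). Complement genes lie highest (median 0.40) and mitosis genes lowest (−0.32), and line AG1 is often the farthest from zero.

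Complement components had the highest median of all lists, 0.40 over 18 genes, with 2 that rose (C1S and C1R) and 10 higher and 1 lower at an unadjusted p under 0.05. C1QC, a subunit of C1q, stood at 25.1, 34.7 and 56.0 CPM against 16.8, 21.5 and 42.6 CPM. It was higher in each line but did not pass (0.54 ± 0.13, edgeR adjusted p = 0.0612). The list's mean change was 0.30, 0.44 and 0.21 in AG1, ORC and PC.

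Interferon-stimulated genes gave a single call (1.85%, near the 2.23% of all genes). Of 54 tested, 1 rose and 0 fell (15 and 0 unadjusted), with a median of 0.19, 47 members above zero and mean changes of 0.32, 0.28 and 0.05 in the 3 lines. The gene that passed was SAMD9L, an antiviral effector (0.41 ± 0.09, edgeR adjusted p = 0.0427). The chemokine gene CXCL11 was at 399, 590 and 685 CPM against 259, 321 and 402 CPM. TLR-MSC-CM PC lay just above STING-MSC-CM AG1, so the groups overlapped, and it did not pass (0.73 ± 0.19, edgeR adjusted p = 0.0639). CXCL10 and CXCL11 overlap ART3, and IFIH1 overlaps GCA, in the RefSeq table. Also short of the threshold were the RNA sensor IFIH1 (0.44 ± 0.13, 0.106), GBP5 (0.17 ± 0.14, 0.607) and CXCL10 (0.20 ± 0.18, 0.664).

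Nucleic acid sensors, adaptors and interferon receptors gave 1 of 35 that rose, the single-stranded RNA sensor TLR8 (0.69 ± 0.12, edgeR adjusted p = 0.0243), with a median of 0.18. This share of 2.86% was near the 2.23% of all genes. TLR5 (0.95), the flagellin receptor, and TLR6 (0.57), which pairs with TLR2, were not on that list and also rose; they were named after their values were seen. TLR3, the receptor of poly I:C, was at 25.7, 43.2 and 31.8 CPM against 16.5, 29.9 and 32.2 CPM (0.37 ± 0.16, edgeR adjusted p = 0.259). STING1 was at 42.3, 57.4 and 65.7 CPM against 57.4, 46.5 and 55.1 CPM (0.03 ± 0.12, 0.933). Neither agonist receptor thus passed the test, and STING1 was lower in AG1 and higher in the others. IFNB1 was at or near the floor in each library, at 0 to 0.151 CPM, and no fold is given.

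Immediate early genes and MAP kinase phosphatases were the group with the most falls, 4 of 29 with 0 rises (16 and 0 unadjusted) and a median of −0.30. Beside DUSP4 they were NR4A1, MAFF and FOSB, transcription factors induced within minutes to hours of a stimulus; FOSB was named after its value was seen. MAFF was at 381, 212 and 308 CPM against 720, 389 and 388 CPM. All its STING-MSC-CM values lay below the lowest TLR-MSC-CM value (−0.73 ± 0.14, edgeR adjusted p = 0.0275). NR4A1 fell by 0.94 ± 0.17 and FOSB by 1.10 ± 0.23. ATF3 and EGR2 were at −0.51 ± 0.12 (edgeR adjusted p = 0.0565) and −0.30 ± 0.12 (0.25). The list's mean change was −0.29, −0.39 and −0.14 in AG1, ORC and PC.

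NF-κB subunits and feedback inhibitors went both ways, with 2 of 23 higher and 1 lower. IRAK3, a brake on Toll-like receptor signalling, rose by 0.67 ± 0.14, mitochondrial superoxide dismutase SOD2 by 0.51 ± 0.11, and the subunit gene REL fell by 0.51 ± 0.11.

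Of 45 cytokine and chemokine ligands 0 rose or fell by adjusted p in edgeR, with 6 higher and 9 lower at an unadjusted p under 0.05 and a median of −0.13 that was 0.05 in 1 of the 21 alternative settings. IL1RN, the IL-1 receptor antagonist, had the smallest p, at 112, 163 and 216 CPM against 335, 298 and 287 CPM. The groups were apart and the adjusted p was 0.0558 (edgeR, −0.91 ± 0.22). IL36G, an IL-1 family cytokine gene, was close behind at 6.23, 3.39 and 6.23 CPM against 16.4, 8.11 and 7.61 CPM (edgeR adjusted p = 0.0565), again with the groups apart. The abundant CCL2 (0.09 ± 0.11) and CXCL8 (0.08 ± 0.15) had overlapping groups.

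Since the study also measured secreted G-CSF, IL-4 and IL-5, their transcripts were read whatever their values. CSF3, which encodes G-CSF, was at 17.1, 32.0 and 7.68 CPM with STING-MSC-CM and 16.3, 40.8 and 4.89 CPM with TLR-MSC-CM. The lines differed far more than the media (0.06 ± 0.25, edgeR adjusted p = 0.936). IL4 was at 3.24 to 5.19 CPM against 3.71 to 7.41 CPM (−0.23 ± 0.19, 0.6), and IL5 at 3.35 to 4.01 CPM against 3.77 to 6.41 CPM (−0.38 ± 0.19, 0.347). Neither passed the test, and the ranges of the media overlapped in both.

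Antigen presentation was mixed. Of 17 MHC class II genes only HLA-DMB, which helps load peptides, rose (0.57 ± 0.12, edgeR adjusted p = 0.0396), while its partner HLA-DMA (0.42 ± 0.15, 0.173), the invariant chain CD74 (−0.23 ± 0.13, 0.415) and DRA (−0.17 ± 0.16, 0.67) did not pass. The class II list moved by −0.32 in AG1 and by 0.17 and 0.12 in ORC and PC. Of 16 class I processing genes 0 passed (3 higher and 1 lower unadjusted, median 0.08).

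Among stress and redox genes, 2 of 38 amino acid starvation and unfolded protein response genes rose, SLC7A11 and the stress-induced regulator NUPR1 (0.69 ± 0.13), with a median of −0.02. Antioxidant and NRF2 target genes (23 tested) had a median of 0.17, with 21 above zero and SLC7A11 and ME1 as the 2 that rose. Haem oxygenase HMOX1, at 2048, 1486 and 1503 CPM against 1038, 1405 and 1359 CPM, did not overlap between media and did not pass (0.40 ± 0.15, edgeR adjusted p = 0.205). Most of its gap came from line AG1. Glycolysis and hypoxia genes (36 tested) and respiratory chain subunits (67 tested) gave 0 calls each, with 3 higher and 5 lower and with 0 higher and 2 lower at an unadjusted p under 0.05, and with medians of −0.04 and −0.05.

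Proliferation and ribosomal protein genes were mostly below zero without a call. Mitosis genes had the lowest median of all lists, −0.32 over 47 genes with 46 below zero, and DNA replication genes −0.22 over 52 with 49 below zero; 0 passed by adjusted p in edgeR, against 19 and 17 lower and 0 higher at an unadjusted p under 0.05. CDC20, an activator of the anaphase-promoting complex, was at 9.49, 9.88 and 10.9 CPM against 18.6, 11.4 and 15.2 CPM (−0.58 ± 0.14, edgeR adjusted p = 0.0608). The mitosis list moved by −0.59 in AG1, 0.02 in ORC and −0.22 in PC, and the replication list by −0.44, −0.01 and −0.11. Beside them, T cell markers moved by −0.38, −0.04 and −0.08 and NK cell markers by −0.42, 0.02 and −0.03, and the part of lymphocytes in the proliferation values was not tested. The mitosis and replication medians against resting were 0.33 and 0.21 with TLR-MSC-CM, and −0.008 and −0.001 with STING-MSC-CM. Of 68 cytosolic ribosomal protein genes 67 were below zero, with a median of −0.14, 0 calls and 17 lower at an unadjusted p under 0.05. Their mean change was −0.32, −0.08 and 0.00 in the 3 lines. Translation factors (36 tested) had a median of −0.08, 0 calls and 3 lower and 0 higher at an unadjusted p under 0.05, the cap-binding protein EIF4E with the smallest p (−0.30 ± 0.08, edgeR adjusted p = 0.0655).

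Matrix-related genes split. Of 26 extracellular proteases and inhibitors, the membrane sheddase ADAM19 rose, from 668, 780 and 1016 CPM to 1073, 1429 and 1268 CPM without overlap (0.62 ± 0.10, edgeR adjusted p = 0.0201), and PLAT fell. MMP9, the most abundant of them, was at 23738, 20698 and 15317 CPM against 12932, 24038 and 14241 CPM. Its lines disagreed in direction (0.23 ± 0.17, edgeR adjusted p = 0.554). Of 20 osteoclast-type genes, DCSTAMP, required for cell fusion, rose by 0.48 ± 0.10 and SIGLEC15 fell. Of the factors that the study names among those it predicts activated MSC to secrete, 8 had a row in the table and 7 were tested in the macrophages; the study drew this list from MSC of the same series, so it is not independent evidence. Of the 7, 0 passed (2 higher and 0 lower unadjusted), with a median of 0.19. The complement component C2 came closest (0.52 ± 0.13, edgeR adjusted p = 0.0705).

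The summed macrophage and T cell markers each differed between the media in the same direction in every line. Macrophage markers had a median of 0.37, and 5 of 23 rose (MERTK, CD163, MRC1, the pore-forming MPEG1 at 0.77 and the adhesion receptor ADGRE1 at 1.08), with 0 that fell. Their summed level was 16410, 20352 and 20028 CPM with STING-MSC-CM and 13060, 16201 and 17856 CPM with TLR-MSC-CM, higher with STING-MSC-CM in each line. In bulk RNA, more cells of a type and more RNA per cell cannot be told apart. The lysosomal, scavenger, iron and clathrin genes above share this direction, and the part of cell composition in their change was not tested. The lists also share members. CD163 is counted among the iron, scavenger and macrophage marker genes, MERTK and MRC1 among the scavenger and marker genes, and CD36 among the efflux and scavenger genes.

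T cell markers had 1 of 15 that fell, CD5 (−0.46 ± 0.10, edgeR adjusted p = 0.0438), with 7 lower and 1 higher at an unadjusted p under 0.05 and a median of −0.23. Their sum was 586, 555 and 558 CPM with STING-MSC-CM and 827, 603 and 625 CPM with TLR-MSC-CM, lower with STING-MSC-CM in each line and most so in AG1. NK cell markers summed to 314, 262 and 302 CPM against 463, 258 and 309 CPM, with 0 of 10 called (1 higher and 3 lower unadjusted). Of the T cell markers on the list, 5 were above zero. Several lymphocyte-associated genes outside the lists fell as well. They were picked after their values were seen, so they give no share of lymphocyte genes that fell. CTLA4, the inhibitory receptor of activated and regulatory T cells, fell by 0.63 ± 0.12, the costimulatory receptor CD27 by 0.96 ± 0.20, the T helper factor GATA3 by 0.55 ± 0.12 and TNFRSF8 (CD30) by 0.73 ± 0.13. FOXP3 fell further than the T cell marker median, and how far the T cell share of the RNA enters its change was not tested.

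Other markers gave little. The fibroblast marker THY1 fell from 4.79, 4.25 and 2.56 CPM to 2.11, 2.56 and 1.15 CPM (−1.02 ± 0.22, edgeR adjusted p = 0.0402) in libraries whose 18 stromal markers tested summed to 30.2 to 70.0 CPM. The maturation marker LAMP3 of dendritic cells rose from 13.3, 14.6 and 15.4 CPM to 21.6, 22.0 and 19.9 CPM (0.54 ± 0.12, 0.0438). B cell, neutrophil, platelet, erythroid, chondrocyte and endothelial markers gave 0 calls (at an unadjusted p under 0.05, 1 lower B cell and 1 lower endothelial marker), and of their members ALAS2, SLC4A1, HAPLN1 and GP1BB were at 0 in all 6 libraries.

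**Figure D4:**
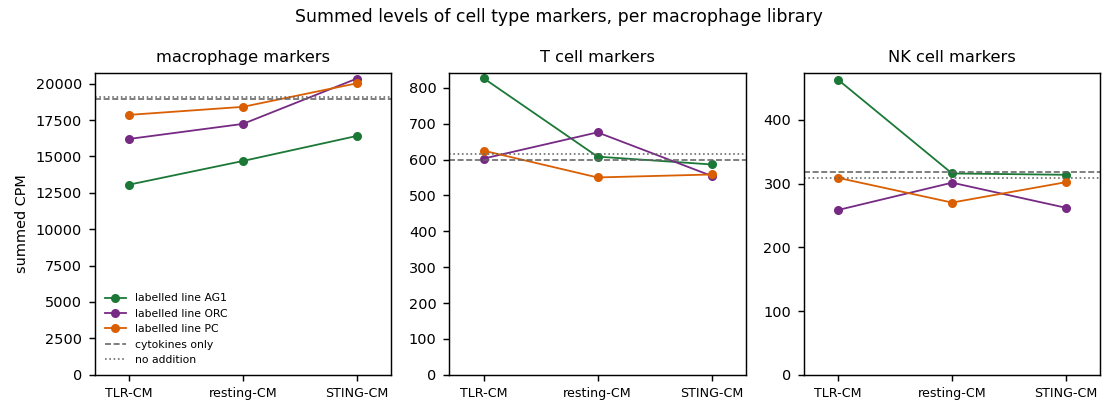
Summed CPM of macrophage, T cell and NK cell markers in each macrophage library, with lines joining the media of each labelled line and horizontal lines for the single libraries with cytokines only and with no addition. Macrophage markers are highest with STING-MSC-CM in each line, and the TLR-MSC-CM library of AG1 stands apart with the lowest macrophage sum (13060) and the highest T cell (827) and NK cell (463) sums.

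The study's own thresholds take the unadjusted p (0.05 or less) and require a change of 2 or more on the log2 scale in either direction. With edgeR, 66 genes (0.438%) passed them, 31 higher and 35 lower. The study applied them to DESeq2, which gave 48 genes here with the block and 65 without it. None of the 66 edgeR genes had an adjusted p under 0.05 or a mean of 1 CPM. In 56 of the 66 the libraries of 1 medium all held at most 3 counts. Among the most abundant were GRPR (the gastrin-releasing peptide receptor), SHISA4, PALM, C11H17orf107 and CYP2J2 among the higher genes, and ATRNL1, MMP15, ADAMDEC1 and SPINK4 among the lower. GRPR had 5, 14 and 8 reads against 0, 3 and 3, so that every TLR-MSC-CM library was at or under the floor. The 336 genes called by adjusted p, in contrast, all had a mean of at least 1 CPM.

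The same media were also given to synoviocytes and chondrocytes, likewise cells of a single horse by the study's overview, which allows the difference between cell types to be tested itself. By the labels the cytokine dose was 10 ng/mL in macrophages and 20 ng/mL in synoviocytes and chondrocytes, while the study's methods give 20 ng/mL for all. If the labels hold, cell type and cytokine dose cannot be told apart in these tests. In a joint fit of 27 libraries with line within cell type, the change from TLR-MSC-CM to STING-MSC-CM differed between macrophages and synoviocytes in 28 of 16584 genes (0.169%) and between macrophages and chondrocytes in 14 (0.0844%), and 10 genes were in both sets. Of the 336 macrophage genes, 26 were among the first and 11 among the second. These calls depended on the setting. With only the libraries of the cell types compared, edgeR called 0 (1556 at an unadjusted p under 0.05) and 2, and without the block 0 (750 unadjusted) and 0 (731 unadjusted).

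GSAP showed the clearest difference. It rose by 0.90 ± 0.11 in macrophages and stood at −0.27 ± 0.11 in synoviocytes, a difference of 1.16 ± 0.15 (edgeR adjusted p = 0.00388), and at −0.03 ± 0.10 in chondrocytes, a difference of 0.93 ± 0.15 (0.033). PLAT, at 30.8 to 38.9 CPM in synoviocytes and 17 to 59.6 CPM in chondrocytes, hardly moved there (0.12 ± 0.20 and 0.05 ± 0.20), with differences of −1.89 ± 0.31 (edgeR adjusted p = 0.0342) and −1.82 ± 0.31 (0.033). SDAD1 (0.86 ± 0.15), S100A6 (−0.73 ± 0.12) and CAMK1D (a calcium/calmodulin kinase, 0.76 ± 0.13) differed from synoviocytes, each with an edgeR adjusted p of 0.0342. From chondrocytes, DPYSL2 (a cytoskeletal regulator that overlaps PNMA2 in the RefSeq table, 0.95 ± 0.15) and USP35 (−1.12 ± 0.18) differed as well, with an adjusted p of 0.033 each. LGALS3BP, an interferon-induced secreted glycoprotein, differed by −4.68 ± 0.80 (0.033), from a rise in chondrocytes (4.91 ± 0.72), while in macrophages it stood at 0.23 ± 0.35. In chondrocytes its STING-MSC-CM libraries spread from 1.09 to 104 CPM, so that the lines differed widely.

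**Figure D5:**
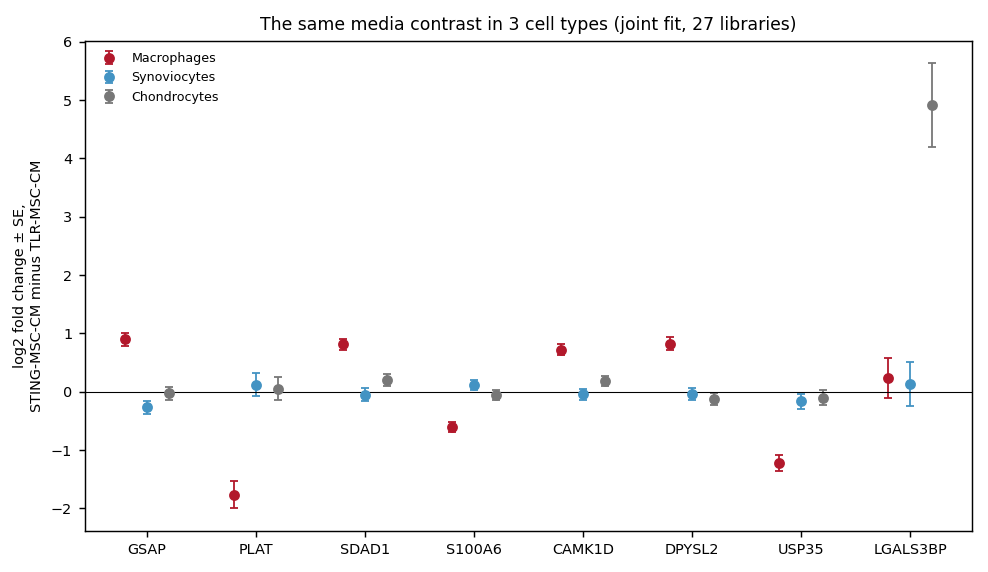
Log2 fold change, STING-MSC-CM minus TLR-MSC-CM, with its SE in macrophages, synoviocytes and chondrocytes (n = 3 libraries per medium and cell type, joint fit) for the genes with the smallest p for a difference between cell types. Macrophage points stand away from zero for 7 of the 8 genes, the synoviocyte and chondrocyte points stay within 0.27 of it, and LGALS3BP is the exception with 4.91 in chondrocytes.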

How the data were processed

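Macrophage RNA was sequenced from poly(A) libraries. The authors used Cutadapt 1.12 for trimming, STAR for alignment (genome build EquCab3.0) and HTSeq 0.11.0 for counting, and deposited whole-number counts of protein coding genes; counts from 1000000 upwards are rounded to 3 significant digits, which touched 1 value here (MMP9, resting AG1). Groups came from the sample labels, and 0 columns lacked a sample. The counts were analysed in R 4.3.3 with edgeR 4.0.16 (TMM, quasi-likelihood test, prior count 0.125, Benjamini-Hochberg adjustment) over 9 macrophage libraries, keeping genes whose counts summed to 10 or more, and took the labelled line as a block. CPM is a count per 1000000 after TMM scaling. DESeq2 1.42.0 was an alternative. The script was tested on simulated data.

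The line in the labels was taken to pair the libraries from the data: same-line deviations from the media means correlated at 0.389 to 0.639, against a median of −0.258 between lines. The value between lines largely follows from the same-line values, since deviations within a medium sum to zero, and adds no separate evidence. The labels do not state that it is the MSC donor. Total counts ran from 26535024 to 39514591 in the 6 libraries.

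Genes named were, per direction, the 15 with the smallest p among called genes with a symbol, a mean of at least 1 CPM and 1 direction in all lines; per list the 3 smallest p and the 2 most abundant members, from which examples were taken; CSF3, IL4, IL5, TLR3, STING1 and IFNB1; the 5 most abundant per direction at the study's thresholds; the 5 smallest p per cell type difference; and called markers. Comparisons, members and lists were chosen with earlier results of these data known. The MSC libraries were not used here, and some genes that the rule named are not reported here.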

Additional observations from a re-analysis of the deposited data

Results flagged for a closer look

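Tests of the difference between cell types put 28 genes (macrophages against synoviocytes) and 14 genes (macrophages against chondrocytes) under an adjusted p of 0.05 in edgeR. With the smallest p, the change in macrophages minus that in synoviocytes was 1.16 for GSAP, −1.89 for PLAT, 0.86 for SDAD1, −0.73 for S100A6 and 0.76 for CAMK1D on the log2 scale. Against chondrocytes it was 0.95 for DPYSL2, 0.93 for GSAP, −1.12 for USP35, −1.82 for PLAT and −4.68 for LGALS3BP. For LGALS3BP the difference came from the chondrocytes. By the labels the cytokine dose also differed between macrophages and the other cell types, and its part was not tested. Without the line block 0 of these differences passed, and with only 2 cell types 0 and 2 did. Single samples that stand far from their group were not tested, since each group held 3.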

How the results depend on the processing

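All 336 genes kept their direction in all 21 alternatives, which was likely from the start for genes that went the same way in all 3 lines. Of the genes named that did not pass, GBP5, CXCL10, CCL2, CXCL8, DRA, MMP9, CSF3, STING1 and IFNB1 changed sign in some. Without the replicate block edgeR called 0 genes, 0 higher and 0 lower (419 higher and 575 lower at an unadjusted p under 0.05), 231 of the 336 genes kept an unadjusted p under 0.05, and 0 genes differed between cell types in either comparison. DESeq2 called 33 without the block (8 higher, 25 lower; 494 and 522 unadjusted) and 761 with it (518 and 243), 334 of them among the 336. The 6 libraries alone gave 72 (43 and 29), and 42 at the study's thresholds. A minimum of 1 count gave 619 (408 and 211; 40 at the study's thresholds). A stricter low-count filter left 76 lower genes and 4 at the study's thresholds, and a prior count of 2 left 3 there. Scaling by library size alone gave 193 lower genes, so that 47.1% of calls were higher instead of 63.4%, and moved the median of all genes to −0.05. DESeq2 without the block had 24.2% higher. With only the cell types compared, 0 and 2 genes differed. Leaving out 1 library gave 0 to 437 calls, 0 to 341 higher, 0 to 130 lower, 48 to 78 at the study's thresholds, and 947 to 1586 higher and 785 to 1102 lower unadjusted. Leaving out all libraries of a labelled line, chosen after seeing the data, gave 79 calls without AG1 (34 and 45), 2 without ORC (1 and 1; 722 lower unadjusted) and 59 lower without PC. The cause of these changes was not tested. Of 798 list medians over settings, 88 moved by more than the SD between lines. Depth limits genes under 1 CPM, where no gene was called.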
